A study of Drosophila melanogaster with 54 samples.

Results

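Treatment of a mature Drosophila oocyte lysate with puromycin left 50 chosen mRNAs of high polysomal share at or above their mean share in 2 untreated lysates. The polysomal share is the part of a gene's mRNA that was found in medium polysomes (5 to 9 ribosomes) and heavy polysomes (10 or more), over the sum of the 6 fractions of a sucrose gradient. The 50 genes had a share of 35% or more in each of 2 oocyte gradients and, in the oocyte puromycin gradient, a share at or above the mean of those 2. Of 6572 genes listed in any gradient, 5829 were listed in the 3 oocyte gradients and 2489 of these reached 35% in both untreated ones. The puromycin condition was met by 53 of the 2489 (2.13%), as by 15.2% of all 5829, and wisp, osk and hb were left out by name, which gives 50. The remaining 2436 genes, whose share was below the oocyte mean with puromycin, are called the other heavy mRNAs. Since these 3 gradients chose the genes, their values are given as a description and were not tested.

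Puromycin mimics the end of a charged tRNA, is joined to the growing peptide and releases it, so that elongating ribosomes leave the mRNA. An mRNA in fast-sedimenting fractions can be on polysomes or in a large particle of another kind, and the study used the drug to ask which mRNAs there were being translated. Mature oocytes of the fly do not transcribe and depend on stored maternal mRNA. Egg activation, which takes place on passage through the oviduct and needs no sperm in this species, changes which stored mRNAs are translated. PNG is the catalytic subunit of the PAN GU kinase, which acts at that step.

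Stage 14 oocytes were selected by hand from ovaries of fattened OregonR females 4 days old, and activated, unfertilised eggs of OregonR virgins mated to spermless twine (HB5) males were collected over 2 h. Each stage had 2 replicate gradients, 1 gradient run after puromycin (2 mM) had been added to the lysate, and an unfractionated input for each gradient, and nothing in the labels says which replicates came from separate animals. The puromycin lysates were also made in another buffer, warmed, and run without cycloheximide on gradients with less magnesium, so the drug's effect and that of the buffers cannot be told apart. Ribosome footprints and RNA came from oocytes and eggs of OregonR and from eggs of png1058/png1058 mothers, each with 1 library pair without and 1 with cycloheximide, a drug that stalls ribosomes. All values are RPKM of poly(A)-selected mRNA or of footprints, and read depth is unknown.

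Libraries were checked against their labels with 18 eggshell and yolk protein genes of follicle cells, the somatic cells around the oocyte. In the inputs these summed to 28749 and 23590 RPKM in oocytes, 12901 RPKM in oocytes with puromycin, and 0.5 and 0.816 RPKM in eggs. The input labelled egg puromycin held 28781 RPKM of them, and 6 germ line genes summed to 199 RPKM there against 1671 and 1446 RPKM in the egg inputs. That input went against its label and was not used. The egg puromycin gradient did not show this: follicle cell genes made up 0.00086% of its total, against 6.67% and 10.6% in the oocyte gradients and 0% and 0.025% in the egg gradients. No member was an eggshell gene, and none of 27 markers of muscle and other somatic cells was listed in the oocyte gradients.

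By median the 50 mRNAs had a smaller polysomal share in oocytes than the other heavy mRNAs. Their oocyte mean share had a median of 38.5%, from 35.7% to 52.1%, against 44.4% for the other heavy mRNAs. With puromycin the member median was 41.1% and that of the other heavy mRNAs 24.6%. Members exceeded their oocyte mean by 0.155 to 9.49 percentage points, with a median of 2.19 points. The SD between the 2 oocyte gradients had a median of 1.98 points, and 20 of 50 members exceeded the mean by less than their own SD. The puromycin value stood above both oocyte gradients for 31 of 50 members, where 11.4% of all 5829 listed genes did so; the rule used the same gradients, so nothing is read from this.

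**Figure D1:**
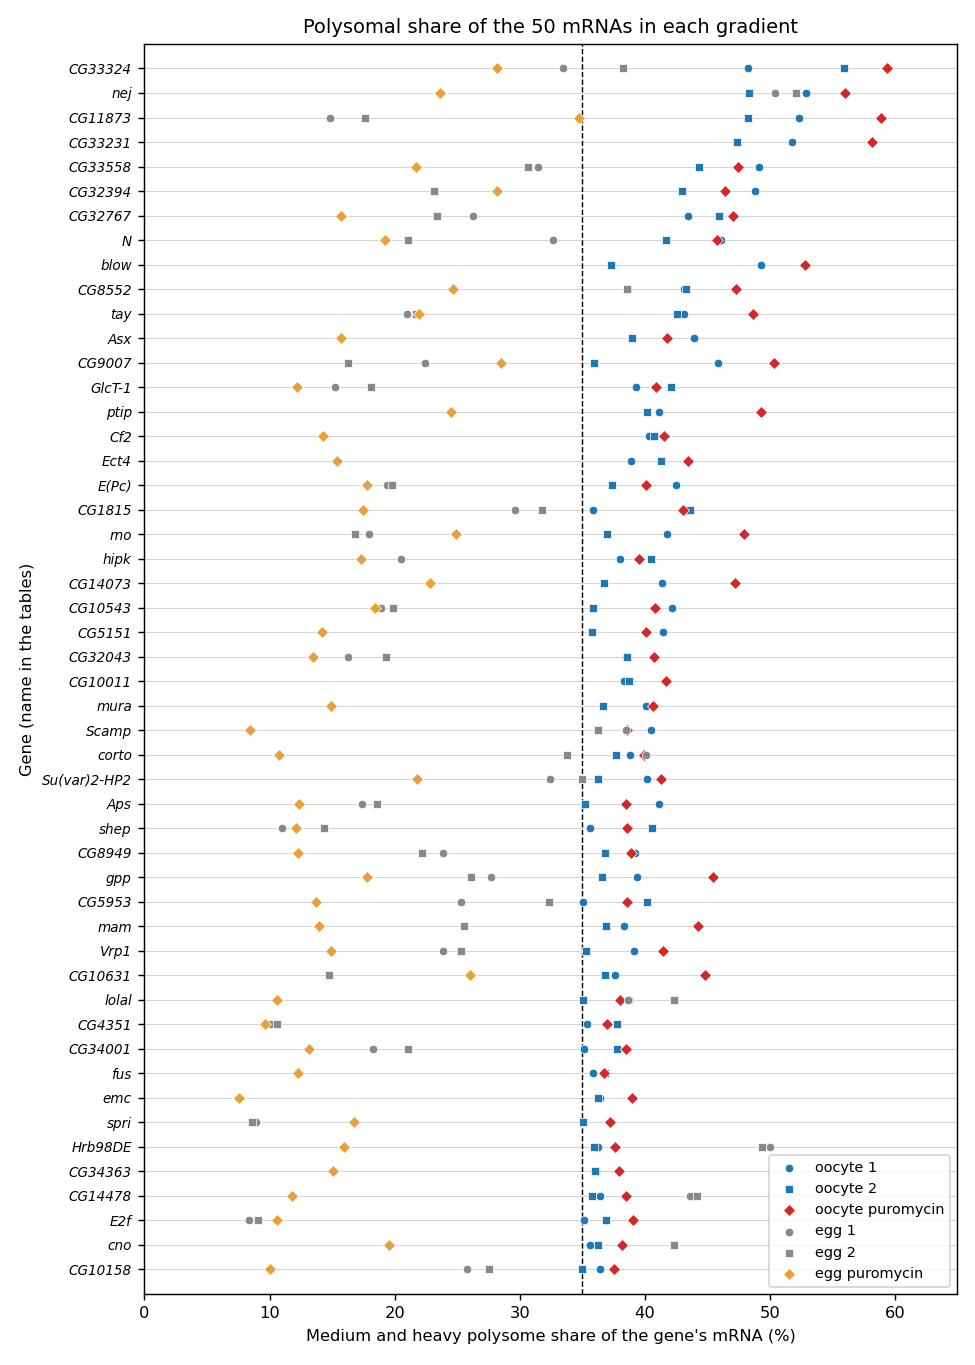
Medium and heavy polysome share (%) of each of the 50 mRNAs in the 6 gradients, 1 row per gene, ordered by the oocyte mean; the dashed line marks 35%. Oocyte values, without (blue) and with puromycin (red), lie to the right of the line for every gene by the rule, while most egg values (grey) and all egg puromycin values (orange) lie to its left. Genes without grey symbols were not listed in an egg gradient.

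How the fractions were scaled decided how many genes met the rule. The values above use the authors' normalized RPKM. When every fraction was instead brought to the same total, 1245 genes met it, 53.5% of the 2327 that then reached 35%, and 39 of the 50 were among them. With gradients centred on their median log2 odds, an alternative added once values had been seen, 465 genes met it and 46 of the 50 were among them. The 50 were therefore chosen by position relative to other mRNAs and by the scaling of the fractions together, and "puromycin-resistant" describes that choice alone.

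The fraction-by-fraction medians show where in the gradient the members lay. In the oocyte gradients their median 60S and 80S share was 23.8% and 30.2%, low polysomes (2 to 4 ribosomes) held 30.7% and 29.3%, medium polysomes 21.7% and 16.3%, and heavy polysomes 18.0% and 22.3%. Free RNA-protein particles held 0.45% and 0.54%, against 2.85% and 1.81% for the other heavy mRNAs. With puromycin the members' median was 17.4% in 60S and 80S, 39.4% in low, 14.4% in medium and 27.9% in heavy polysomes. The medium part was thus lower and the heavy part higher than in either untreated gradient, and for the other heavy mRNAs the heavy part went from 24.7% and 24.4% to 14.3%. With heavy polysomes alone in place of medium and heavy, no gene met the rule. None of the 211 genes with 35% or more in heavy polysomes of both oocyte gradients reached its oocyte mean with puromycin. Heavy polysomes of oocyte gradient 1 held at most 29.2% of a member's mRNA, so the 35% cut shut out every member beforehand.

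**Figure D2:**
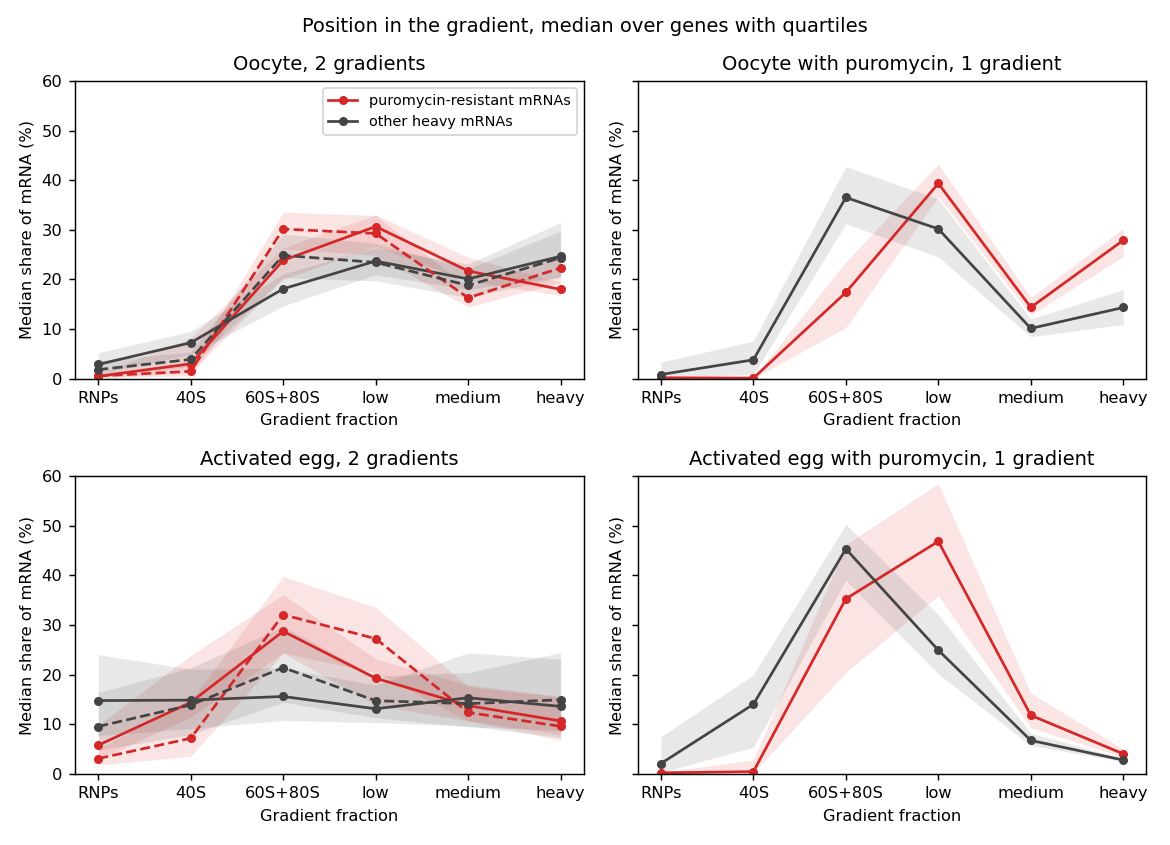
Median share of mRNA (%, y axis) in each of the 6 fractions (x axis) for the puromycin-resistant mRNAs (red) and the other heavy mRNAs (dark grey), with shaded quartiles over genes; solid lines are replicate 1 and dashed lines replicate 2, and egg panels hold only the genes listed there. With puromycin the members' oocyte median is 39.4% in low and 27.9% in heavy polysomes, while that of the other heavy mRNAs peaks in 60S and 80S at 36.5%.

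The largest oocyte shares were those of CG33324, nej and CG11873. The gene listed as CG33324, which the current annotation places in the record of gpp, held 48.3% and 55.9% in the oocyte gradients and 59.4% with puromycin. The mRNA of gpp, the Dot1 methyltransferase of histone H3, is listed on its own with 39.4%, 36.6% and 45.5%. The nej mRNA, for the acetyltransferase CBP, held 52.9% and 48.3% and, with puromycin, 56.0%. CG11873 (Bicra, the counterpart of a human SWI/SNF remodeller subunit) held 52.3%, 48.3% and 58.9%. In each of these the puromycin value was above both others, and the names CG33324 and gpp may share reads.

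The largest differences were found for blow, CG9007, ptip, CG33231, CG11873 and rno. The mRNA of blow, needed for myoblast fusion, held 49.3% and 37.3% and then 52.8%, an excess of 9.49 points over a mean whose SD was 8.53 points. CG9007 (upSET, a SET domain protein of chromatin) held 45.9%, 36.0% and 50.3%, and its oocyte gradients also lay far apart, with an SD of 7.02 points. For ptip, a subunit of a histone methyltransferase complex, the oocyte gradients were close at 41.1% and 40.2%, and puromycin gave 49.3%. For rno, a PHD finger protein of the nucleus, 41.7% and 37.0% became 47.9%, with heavy polysomes going from 16.8% and 22.7% to 33.3% and 60S with 80S from 18.7% and 30.9% to 4.15%. CG33231 (Svil, related to the actin-binding supervillin) went from 51.8% and 47.4% to 58.2% at inputs of 2.81 and 3.11 RPKM, and CG14073 and CG10631 exceeded their means by 8.10 and 7.57 points. Heavy polysome values in the oocyte gradients were 5.26 and 4.89 for CG33231 and 4.91 and 6.98 for blow. No gene with a heavy value below 4 is listed, so at such low values the listing itself keeps the share from being small.

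At the boundaries of the rule genes lay close together. CG10158 (Fgop2), spri and lolal were the last inside 35%, at 35.02%, 35.06% and 35.07% in oocyte gradient 2. CG14023, Cip4 and ash1 were just outside it at 34.97%, 34.97% and 34.84%, and CG14023 reached 49.0% with puromycin. GlcT-1, Scamp and E(Pc) exceeded their means by 0.155, 0.163 and 0.177 points, while CG17724, TORC and Plc21C fell short by -0.047, -0.156 and -0.174 points.

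By annotation the members were long mRNAs, and the isoforms present in oocytes were not determined. The longest annotated transcript had a median of 7203 nt over the 42 members with a length, against 2245 nt over 2364 other heavy mRNAs and 2052 nt over all listed genes. Their coding part had a median of 4317 nt against 1489.5 nt, the 3′ untranslated region 1531 nt against 311 nt, and the 5′ untranslated region 654.5 nt against 174 nt. Among the 42, 33 were longer than the upper quartile of the other heavy mRNAs, and 34 had a 3′ untranslated region above that group's upper quartile. The longest were nej (15729 nt), CG9007 (12737 nt), CG10631 (12133 nt) and CG11873 (12064 nt). The shortest were CG34001 (587 nt), lolal (1686 nt), CG10158 (2048 nt) and emc (2049 nt).

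When heavy mRNAs with a length were split into 10 equal bins of transcript length, 25 of the 42 members fell in the longest bin, 6161 to 23041 nt, where they made up 10.4% of 241 genes. The next bin held 5 members, and the 3 shortest bins together held CG34001 alone. Length and the puromycin value also went together among the other heavy mRNAs. Their median difference from the oocyte mean was -24.9 points in the shortest bin and -13.2 points in the longest, with a Spearman correlation of 0.35 across 2364 genes, which share their libraries and are not independent. RNA of the input shifted with length too: the ratio of oocyte puromycin to oocyte input had a Spearman correlation of 0.68 with length over 5667 listed genes. The part of these shifts in the choice of members was not tested.

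**Figure D3:**
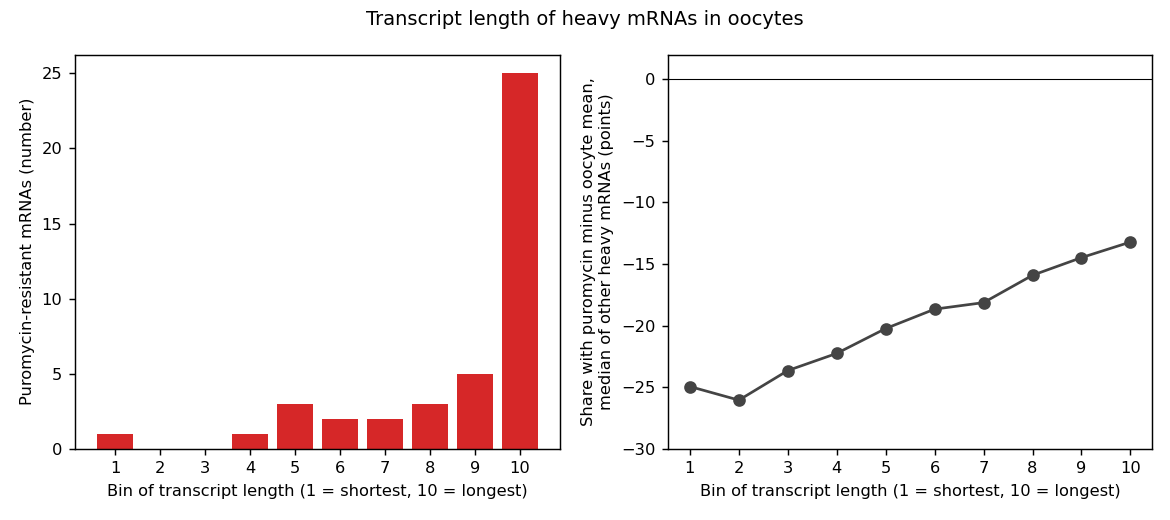
Left, number of puromycin-resistant mRNAs in each of 10 equal bins of transcript length of the heavy mRNAs, 1 being the shortest; right, median difference between the puromycin share and the oocyte mean share (percentage points) of the other heavy mRNAs in the same bins. The last bin holds 25 members, and the median difference goes from -24.9 points in the first bin to -13.2 points in the last.

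Footprints, which the rule did not use, were sparse on these mRNAs in oocytes. Translational efficiency is log2(footprint RPKM + 1) minus log2(RNA RPKM + 1), and 41 members had values. Its oocyte mean had a median of -2.27 over members, from -3.99 to 1.55, against 0.39 over 2212 other heavy mRNAs and -0.61 over 5296 listed genes. It was below 0 for 38 of 41 members and for 36.9% of the other heavy mRNAs, and 34 of 41 members lay below that group's lower quartile. In footprints without cycloheximide the member median was 5.60 RPKM against 68.7 RPKM, at RNA medians of 27.3 and 46.9 RPKM. Among the other heavy mRNAs oocyte efficiency went down with transcript length (Spearman correlation -0.48 across genes), and in the longest bin the median oocyte efficiency was -2.34 for 25 members and -0.81 for 211 other heavy mRNAs. Oocyte efficiency also went down as the puromycin share minus the oocyte mean share went up. The Spearman correlation was -0.73 over listed genes, -0.66 over the other heavy mRNAs and -0.18 over 41 members. That difference subtracts the oocyte mean share, which itself went with oocyte efficiency. Their correlation was 0.64 over listed genes, 0.46 over the other heavy mRNAs and -0.41 over members. The values are therefore tied in part by the way the difference is formed, and nothing is read from them. No test was made across genes, which are not replicates.

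**Figure D4:**
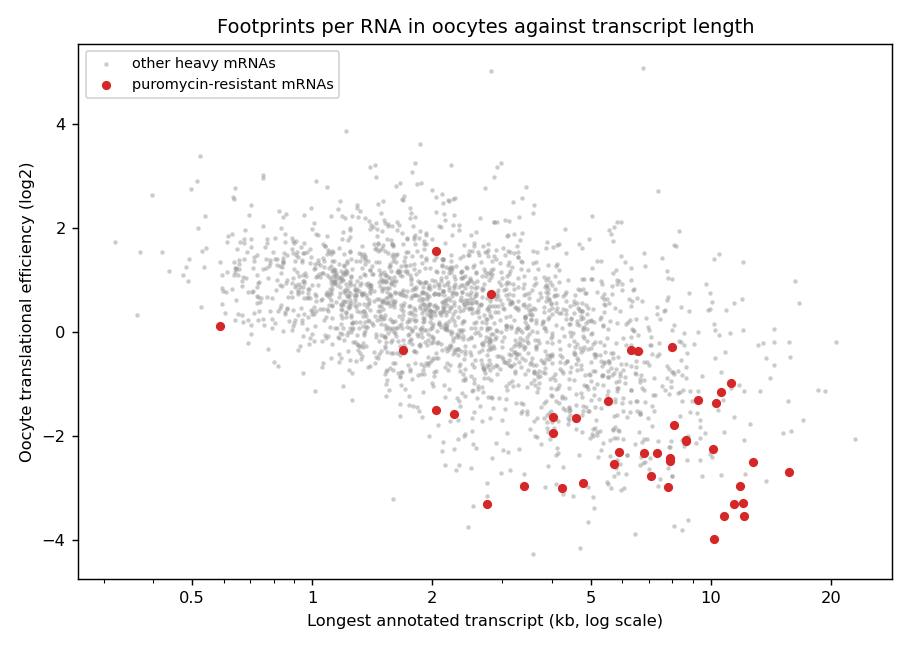
Oocyte translational efficiency (log2, mean of the library pairs without and with cycloheximide, y axis) against the longest annotated transcript (kb, log scale, x axis) for other heavy mRNAs (grey) and puromycin-resistant mRNAs (red), 1 point per gene. Most members lie at the lower right, with a median of -2.27, and 3 lie above 0.

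The lowest oocyte efficiency was that of gpp, with 2.18 and 2.37 RPKM of footprints on 46.9 and 55.3 RPKM of RNA without and with cycloheximide. For nej footprints were 16.2 and 12.2 RPKM on 87.7 and 107 RPKM of RNA. The exceptions were emc, Scamp and CG34001, whose mean was above 0. The emc mRNA, for a helix-loop-helix inhibitor of transcription factors, had 58.5 and 60.0 RPKM of footprints on 20.2 and 19.1 RPKM of RNA, an efficiency of 1.55 ± 0.080 (SD, n = 2). Scamp, a secretory carrier membrane protein, had efficiencies of 0.98 and 0.45, and CG34001 of 0.51 and -0.30.

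The Spearman correlation of oocyte share with oocyte efficiency was -0.41 over 41 members, 0.46 over 2212 other heavy mRNAs and 0.64 over 5296 listed genes. In eggs the same pair of measures gave 0.80 over 29 members and 0.81 over 4951 listed genes. These are descriptions across genes of the same libraries, and the member value covers a narrow range of shares that the rule set.

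At activation translational efficiency rose for 31 of 41 members and fell for 3, eggs against oocytes (limma, adjusted p under 0.05), where 46% of all 5840 transcripts tested were higher and 24.7% lower. The median change was 2.07 on the log2 scale for members, 0.07 for the other heavy mRNAs and 0.50 for all transcripts. Of the 2212 other heavy mRNAs 776 were higher and 732 lower. With libraries centred on their median, likewise added later, the median of all transcripts moved to -0.27, and 27 members were higher and 7 lower, against 32.2% and 43.9% of all. Both egg values stood above both oocyte values for 32 of 41 members, against 52.4% of listed genes. In the longest bin 20 of 25 members and 52.6% of 211 other heavy mRNAs were higher. The change subtracts the oocyte efficiency, whose median was -2.27 for members and -0.61 for listed genes, so a low start raises it. In eggs the median efficiency was -0.05 for members, 0.49 for the other heavy mRNAs and 0.06 for listed genes. The part of the low start in the rise was not tested.

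The largest rise was that of CG32767, with oocyte footprints of 3.60 and 3.67 RPKM and egg footprints of 160 and 166 RPKM, without and with cycloheximide. Its RNA stood at 41.3 and 49.6 RPKM before activation and at 54.7 and 50.1 RPKM after it, so the efficiency change of 4.94 ± 0.22 (SE, limma adjusted p = 1.2e-06) lay in the footprints. Aps, an inositol polyphosphate phosphohydrolase, went from footprints of 13.5 and 12.5 RPKM to 343 and 275 RPKM, an efficiency change of 4.42 ± 0.25 (SE). Footprints of N, the Notch receptor, went from 4.31 and 5.26 RPKM to 124 and 135 RPKM (efficiency change 4.05 ± 0.24 SE). CG14478 rose by 4.19 ± 0.24 (SE), and Hrb98DE, an RNA-binding protein of the hnRNP family, by 3.99 ± 0.40 (SE) from oocyte values of -0.86 and -2.30 that lay far apart.

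The size of the rise varied among the 31. The nej efficiency went from -2.37 and -3.03 to 1.003 and 1.01, a change of 3.71 ± 0.22 (SE). That of gpp went from -3.91 and -4.06 to -0.13 and -0.35, and that of corto, a partner of Polycomb and trithorax proteins, from -1.20 and -1.44 to 1.89 and 1.89. The mRNA of mam, the coactivator of Notch, went from -2.01 and -2.87 to -0.53 and -0.20, a change of 2.07 ± 0.30 (SE). Smaller changes passed for Asx (0.85 ± 0.27 SE, limma adjusted p = 0.019), a Polycomb group gene, for rno (0.83 ± 0.30 SE, limma adjusted p = 0.035) and for ptip (1.09 ± 0.41 SE, limma adjusted p = 0.038). E(Pc), a subunit of the Tip60 acetyltransferase complex, rose by 1.47 ± 0.26 (SE) and still had egg values of -2.22 and -1.94.

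At activation 3 members fell and 7 passed in neither direction. CG34001 fell by 2.59 ± 0.39 (SE), with oocyte footprints of 39.5 and 24.2 RPKM and egg footprints of 5.42 and 3.30 RPKM. The mRNA of spri, a Rab5 exchange factor, fell by 1.41 ± 0.27 (SE), and that of emc by 0.96 ± 0.22 (SE, limma adjusted p = 0.0037). The emc call was lost without the egg library pair lacking cycloheximide (limma adjusted p = 0.079). The 7 not called were CG10011, CG10631, CG5151, Cf2, fus, mura and shep, whose changes ran from -0.77 to 0.34.

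In eggs of png mothers the efficiency of the members was on balance below that of OregonR eggs. It was lower for 23 of 41 and higher for 9 (limma, adjusted p under 0.05), where 38% of all transcripts tested were lower and 32.1% higher. The median difference was -0.998 for members, 0.41 for the other heavy mRNAs and -0.11 for all transcripts. Both png values were below both egg values for 27 of 41, against 46.9% of listed genes. With libraries centred the median of all moved to 0.43, and 18 members were lower and 13 higher, against 31.2% and 47.3% of all. Both comparisons use the same egg libraries, so a high egg value raises the first and lowers the second, and their values are set side by side without a test of their overlap.

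The largest deficits were those of corto and CG32767. Footprints of corto went from 23.2 and 20.8 RPKM to 190 and 196 RPKM, against 6.94 and 9.29 RPKM in png eggs, on 50.4 to 71.5 RPKM of RNA. Its efficiency differed by -4.87 ± 0.23 (SE, limma adjusted p = 4.0e-07) between png eggs and eggs, and both png values lay below both oocyte values. CG32767 had 8.32 and 9.98 RPKM of footprints in png eggs against 160 and 166 RPKM in eggs (-4.32 ± 0.22 SE). The mRNA of gpp had 3.32 and 3.22 RPKM against 43.7 and 34.3 RPKM (-3.37 ± 0.24 SE), and cno, the junction protein afadin, 24.8 and 21.9 RPKM against 193 and 159 RPKM (-3.31 ± 0.23 SE). Footprints of N were 25.6 and 25.3 RPKM in png eggs, above both oocyte values and below both egg values (-2.88 ± 0.24 SE).

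Set side by side, 21 members were higher in eggs than in oocytes and lower in png eggs than in eggs. They were Aps, CG10543, CG14478, CG1815 (Zmynd8), CG32767, CG33558 (mim), CG5953, CG8552 (PAPLA1), CG8949, GlcT-1, N, Scamp, Su(var)2-HP2, cno, corto, gpp, hipk, lolal, mam, nej and tay. Their median efficiency was -2.27 in oocytes, 1.27 in eggs and -0.86 in png eggs. For 16 of the 21 both png values were still above both oocyte values, as for 32 of all 41 members. The same held for 54.7% of the other heavy mRNAs and 46.6% of listed genes. The oocyte values had a part in choosing the 21, so this is a description. A further 7 (CG10158, CG11873, CG9007, E(Pc), Hrb98DE, Vrp1 and rno) rose at activation and were not called in png eggs. Efficiency of Vrp1, the actin regulator verprolin, went from -2.11 and -1.78 to 1.47 and 2.17 at activation, and stood at 2.21 and 2.60 in png eggs.

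The opposite was seen for CG34001 and spri, which were lower in eggs than in oocytes and higher in png eggs than in eggs. Footprints of spri went from 7.24 and 4.73 RPKM to 1.72 and 1.96 RPKM, with 20.2 and 16.9 RPKM in png eggs, an efficiency difference of 3.04 ± 0.27 (SE) between png eggs and eggs. For CG34001 it was 3.14 ± 0.39 (SE), at png RNA of 14.2 and 12.3 RPKM against 27.9 and 28.8 RPKM in eggs. Asx, CG14073 and ptip were higher in eggs and higher again in png eggs. Efficiency of ptip went from -1.24 and -2.37 to -1.18 and -0.25 at activation, and stood at 1.52 and 1.46 in png eggs (2.21 ± 0.41 SE against eggs). Efficiency of emc was lower at both steps, and CG5151, CG10011, CG10631 and fus were higher in png eggs alone.

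**Figure D5:**
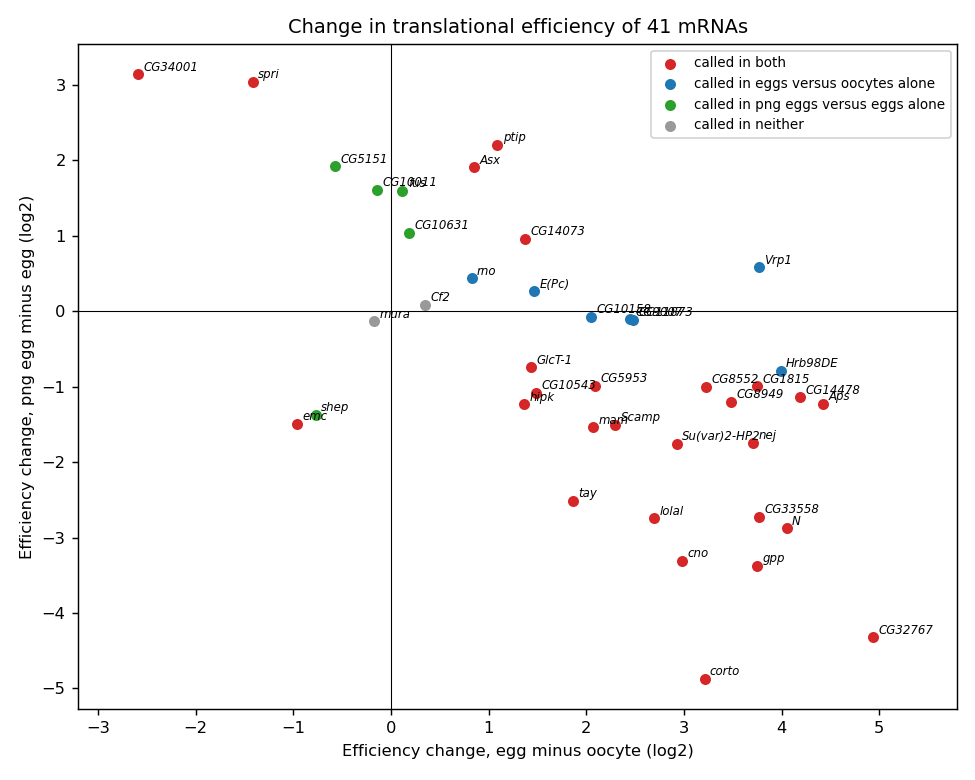
Change in translational efficiency (log2) from oocyte to egg (x axis) and from egg to png egg (y axis) for the 41 puromycin-resistant mRNAs with footprint values, 1 point per gene, coloured by which of the 2 comparisons passed limma's adjusted p of 0.05. The 21 members at the lower right rose in eggs and were lower in png eggs; CG34001 and spri lie at the upper left, and both axes share the egg libraries.

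In the egg gradients most members held a smaller polysomal share than in oocytes. Tables stop at a heavy polysome value of 4, and 34 and 36 of the 50 were listed in egg gradients 1 and 2, with 33 in both and 13 in neither. Over the 33 the egg mean share had a median of 24.8%, from 8.71% to 51.3%, and that of 2206 other heavy mRNAs was 32.9%. Both egg values were below both oocyte values for 26 of 33, against 59.4% of listed genes, and above them for 3 of 33, against 25.1%. The oocyte gradients chose the members, so this is a description. The median share in free particles was 5.76% and 3.07% over the members listed in each egg gradient, against 0.45% and 0.54% over all 50 in oocytes. The median over all listed genes also went up, from 4.57% and 2.81% to 18.4% and 12.4%, as did that of the other heavy mRNAs, from 2.85% and 1.81% to 14.8% and 9.53%.

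The 3 that stood above both oocyte gradients were Hrb98DE, CG14478 and cno. Hrb98DE held 36.2% and 36.0% in oocytes and 50.1% and 49.4% in eggs, CG14478 36.4% and 35.8% and then 43.6% and 44.1%, and cno 35.6% and 36.3% and then 42.3% in each egg gradient. The share of nej was the highest in eggs, 50.5% and 52.1%, and lay within its oocyte range of 48.3% to 52.9%. The lowest were E2f, a cell cycle transcription factor, with 35.2% and 36.9% and then 8.33% and 9.10%, and spri with 37.3% and 35.1% and then 8.89% and 8.58%. CG4351 (Chpf) held 10.1% and 10.6% in eggs and shep, an RNA-binding protein, 11.0% and 14.3%. The 21 members that rose in eggs and were lower in png eggs had a median egg share of 30.7% over the 19 with values, and the members that did not rise had 12.7% over 3.

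The egg gradients had no part in the rule, so the response to puromycin was also compared in eggs. There the puromycin group was a single gradient, assumed to vary as the replicates did, and the spread in the test came from all untreated gradients, those of the rule included. The egg puromycin gradient listed 47 members, against 34 and 36 in egg gradients 1 and 2. For the other heavy mRNAs it listed 2245, against 2246 and 2235. Members that fell below the heavy polysome value of 4 in an untreated egg gradient could not be compared. The counts below leave these members out, and a resulting tilt of the counts toward lower was not tested. By limma on the log2 odds of the share, 19 of the 33 members listed in all gradients were lower with puromycin and 3 were higher, where 80.1% of all 5088 genes tested were lower and 1% higher. The median change was -0.71 for members, -2.15 for 2136 other heavy mRNAs and -1.83 for all genes. The direction of the members rested on scaling. With fractions brought to the same total 25 members were higher and 0 lower, against 31.4% and 31.4% of all genes, and with centred gradients, which move every gene alike, 24 were higher and 3 lower, against 34.5% and 30.2%. The member median exceeded the median of all genes by 1.12 as deposited, 1.25 with equal totals and 1.12 with centring, and by 0.56 with heavy polysomes alone, where 0 were higher and 23 lower, against 0% and 79.2% of all genes. With the 3 egg gradients alone in the fit 2 members were higher and 18 lower, against 0.55% and 77.1%. The puromycin value lay below both egg gradients for 26 of 33, against 90% of genes, and above both for 6, against 5.21%.

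The 3 members called higher with puromycin in eggs, on the value of 1 gradient, were CG11873, spri and rno. CG11873 held 14.8% and 17.6% in the egg gradients and 34.7% with puromycin (1.41 ± 0.24 SE, limma adjusted p = 0.0016). For spri 8.89% and 8.58% became 16.7% (1.05 ± 0.19 SE, limma adjusted p = 0.0022). For rno 17.9% and 16.8% became 24.9% (0.59 ± 0.22 SE, limma adjusted p = 0.041), a call lost without either egg replicate (limma adjusted p of 0.053 and 0.12) and with the egg gradients alone in the fit (0.063), and opposite in sign, at -0.41, with heavy polysomes alone. With heavy polysomes alone neither CG11873 (limma adjusted p = 0.33) nor spri (0.18) passed. In oocytes CG11873 and rno had also stood above both untreated gradients with puromycin, and spri between them.

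The largest losses with puromycin in eggs were those of Scamp, CG14478, lolal, Hrb98DE and corto. Scamp went from 38.5% and 36.2% to 8.45% (-2.69 ± 0.22 SE), while in oocytes it had been 40.5% and 36.3% without and 38.6% with puromycin. CG14478 went from 43.6% and 44.1% to 11.8% (-2.55 ± 0.20 SE) and lolal, a BTB protein, from 38.7% and 42.3% to 10.6% (-2.52 ± 0.22 SE). Hrb98DE went from 50.1% and 49.4% to 16.0% (-2.38 ± 0.21 SE) and corto from 40.1% and 33.8% to 10.8% (-2.28 ± 0.24 SE). For each of the 5 the loss was past the threshold as deposited, and with fractions brought to the same total none was, at -0.59 to -0.14. Over all alternative settings the call was lost in 3 each for Hrb98DE and corto, and in 1 each for Scamp, CG14478 and lolal. All 5 also rose in efficiency at activation.

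Member mRNAs had lower input values than the other heavy mRNAs, among which values also went down with length. The oocyte input mean had a median of 20.0 RPKM over the 50, from 2.46 to 250 RPKM, and of 46.6 RPKM over the other heavy mRNAs. In the longest bin it was 18.5 RPKM for 25 members and 25.4 RPKM for 216 other heavy mRNAs. Hrb98DE was the most abundant with 243 and 258 RPKM. In the inputs 3 of 50 members differed between eggs and oocytes (limma, adjusted p under 0.05), where 3.47% of 6622 genes did; 2 were higher in eggs, against 0.423% of genes, and 1 lower, against 3.05%. Without egg replicate 2 the count was 13 of 50, where 26.1% of all genes passed. N went from 5.69 and 4.04 RPKM to 24.5 and 22.8 RPKM (2.08 ± 0.29 SE, limma adjusted p = 0.0010) and tay, an antagonist of EGF receptor signalling, from 6.5 and 6.8 RPKM to 17.7 and 18.2 RPKM (1.305 ± 0.27 SE, limma adjusted p = 0.021). The call of N was lost without either oocyte input (limma adjusted p of 0.082 and 0.19), as was that of tay (0.47 and 0.49). The blow mRNA went from 2.29 and 2.63 RPKM to a listed 0 and to 0.096 RPKM (-1.72 ± 0.25 SE, limma adjusted p = 0.0017). The follicle cell genes of the label check also fell from oocyte to egg inputs, and the cell of origin of blow mRNA was not tested.

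In RNA of the footprint series N and tay were also higher in eggs, by less than in the inputs, and neither was called. Of the 41 members tested there 0 passed in limma, 3 had an unadjusted p under 0.05, and 0.394% of 5840 transcripts passed. N went from 24.7 and 28.8 RPKM to 41.7 and 32.6 RPKM, a change of 0.45 ± 0.17 (SE, limma adjusted p = 0.38), and tay changed by 0.79 ± 0.18 (SE, limma adjusted p = 0.15). In these whole-egg lysates fewer cells of a type and less RNA per cell cannot be told apart. In the oocyte puromycin input 42 of 50 members were above both oocyte inputs, against 34.1% of listed genes and 39.2% of the other heavy mRNAs. The members' median log2 ratio there was 0.68, that of the other heavy mRNAs -0.05, and the sum over the 6 fractions of the puromycin gradient was higher by a median of 1.62 and 0.72. In the longest bin the input ratio was 0.64 for members and 0.50 for the other heavy mRNAs, so long heavy mRNAs in general had a higher value in the puromycin input. The part of this in the share was not tested.

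The members made up 2.01% of the 2489 heavy genes, so gene lists of this size would hold few of them in any case. Of 28 heavy mRNAs of a chromatin list nej was a member, and of 18 heavy mRNAs of a Notch, Wnt and Hedgehog list N and mam were. The chromatin list is not complete: the members gpp, CG9007, ptip, CG11873, Asx, E(Pc) and corto, described above by chromatin roles, are not on it. No member came from the cell cycle list (37 heavy mRNAs), the cytoskeleton list (34), the proteasome list (28), the nuclear pore list (14), the piRNA list (5) or the cytosolic ribosomal list (1). The translational regulator list (25), the axis list (11) and the germ plasm list (9) had no member once wisp, hb and osk were left out. The median difference between the puromycin share and the oocyte mean was -38.4 points for the proteasome list and -11.1 points for the Notch, Wnt and Hedgehog list. Over that signalling list, efficiency at activation was higher for 26 of 28 and lower for 1. Over the chromatin list it was higher for 26 of 41 and lower for 9, where 46% of all transcripts tested were higher and 24.7% lower. The median oocyte efficiency was -1.52 over these signalling genes and -1.02 over these chromatin genes, against -0.61 over listed genes. A low start raises the change, and its part here was not tested. In png eggs 15 of the 28 signalling genes were lower and 5 higher, and 16 of the 41 chromatin genes were lower and 12 higher, where 38% of all transcripts were lower and 32.1% higher.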

How the data were processed

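Inputs were deposited as RPKM per gene and gradient fractions as RPKM that the authors had normalized (per the file headers), beside a deposited fraction (0 to 1) of each gene's mRNA that equalled the recomputed value within 0.0052. Footprint and RNA libraries were deposited as RPKM. TopHat 1.3.2, Bowtie, HTSeq, FastQC and build dm3 are named, without roles, in the submitters' processing notes. Per the labels, fractions were spiked with 5 ng of yeast mRNA (14 collected fractions in replicate 1 of each stage) and, in egg and puromycin gradients only, 5 ng of luciferase RNA. The use of these spikes in the normalization is not stated in the labels.

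The share was tested as log2((medium + heavy + 1)/(other 4 fractions + 1)) over all 6 gradients. Efficiency came from a model over the 12 footprint-series libraries with a cycloheximide term per assay. In that series each stage or genotype had 2 library pairs that differ in cycloheximide, so no biological replicate was measured. All tests were two-sided limma 3.58.1 (lmFit, eBayes with trend) in R 4.3.3, Benjamini-Hochberg adjusted over all genes, threshold 0.05, after filters of a mean of 1 RPKM or a mean sum of 10 over fractions. Where replicates are not from separate animals, p-values reflect a spread that may be technical. Read counts were not used here, so no depth or counting interval is given. Tables were handled with python 3.11.15, pandas 2.3.3 and numpy 2.4.6, and drawn with matplotlib 3.10.9.

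Names were matched to a current gene annotation (13870 of 14258), which gave lengths and current symbols but no coordinates. Of the members, 9 share a gene record with another name and 8 have no length. No sequences were used, so a planned motif search was not run.

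The members and all gene lists were chosen with earlier results of these data known. Genes named are the 10 with the largest puromycin difference, the 8 with the highest oocyte share, the 8 with the highest input, up to 5 rises and 5 falls per test, list members, the 4 highest and 4 lowest egg shares, the 4 longest and 4 shortest, and those at the thresholds. Other names were added to complete short counts or as gene examples, after their values were seen.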

Additional observations from a re-analysis of the deposited data

Results flagged for a closer look

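With puromycin the polysomal share of 14 of the 33 members listed in all gradients stood above both oocyte gradients but below both egg gradients, where 8.33% of the 5088 listed genes and 0 of the 2136 other heavy mRNAs did so. The oocyte part of this pattern is what chose the members, and 90% of all genes lay below both egg gradients with puromycin, so the count is a description and nothing is read from it. Each stage has 1 puromycin gradient, and the difference between stages was not tested. The direction in eggs also turned with scaling: with fractions brought to the same total 25 members were called higher and 0 lower there.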

How the results depend on the processing

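The number of genes that met the rule was 50 as reported, 1245 with fractions brought to the same total, 0 with heavy polysomes alone, 2052 with low polysomes included, 211 and 12 with thresholds of 30% and 40%, 31 with the higher oocyte gradient as the bar, and 465 with centred gradients, which was added after the data were seen. Without either oocyte replicate it was 68 to 72, and 38 to 43 of the 50 remained. With heavy polysomes alone the 35% cut shut out every member beforehand. The median egg share was 24.8%, and 23.3% to 24.6% without either egg replicate. In the inputs 3 members were called; leaving out a replicate gave 1 to 13, the 13 without egg replicate 2 (26.1% of all genes there) and 1 without either oocyte replicate (3.11% and 2.97%). With the replicate number as a block 5 were called (5.59% of all genes); same-numbered inputs had deviations with a correlation of -0.0276, so the numbers were not taken as pairs, and no replicate block was possible for puromycin, with 1 gradient per stage. The efficiency fit paired libraries by cycloheximide; without that term 35 and 32 members were called. Egg puromycin calls numbered 20 to 27 under every alternative run, but their direction turned with scaling, as given above, and with low polysomes included (20 higher and 3 lower, against 16.4% and 48.7% of all genes). Efficiency calls at activation numbered 31 to 35 and in png eggs 22 to 34, and the member median kept its sign in each. Of the single genes named for a test 303 settings kept the call, 21 lost it and 1 turned its sign (rno with puromycin in eggs, -0.41 with heavy polysomes alone). The cause of these changes was not tested. Depth is unknown, so the counting error of members at a few RPKM, such as blow and CG33231, could not be given.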
